A study of Mus musculus with 12 samples.

Results

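Of 12 mouse arrays, 3 had very low signals from hair shaft keratin genes, and the RNA on these hair-poor arrays was compared here with that on the other 9. The 3 are the Eng+/- sample at 90 d with no named treatment and both tpa samples at 50 d, Eng+/- and wt. The other 9 are the wt sample at 90 d and both samples at 50 d with no named treatment, all 4 clp samples (Eng+/- and wt at 90 d and 50 d), and both tpa samples at 90 d. Each combination of genotype, day and treatment has 1 array, so no group has replicates. Every sample was labelled with Cy5 and hybridised against a pool in Cy3, and all values below are log2 ratios of Cy5 over that pool unless stated. Eng+/- samples carry 1 modified copy of Eng, which encodes endoglin, a co-receptor for TGF-beta and BMP ligands, and wt samples are the unmodified controls. The sources used here do not say what clp and tpa stand for or what the days count. Only the wt samples at 90 d and 50 d lacking clp and tpa have titles that begin with "pool". Whether their RNA was prepared differently from that of the other samples was not tested.

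The hair follicle passes through repeated cycles of growth (anagen), regression (catagen) and rest (telogen). In growth, dividing matrix cells around the dermal papilla produce the hair shaft and its root sheaths under Wnt, Hedgehog, BMP and FGF signals, while melanocytes of the bulb pass pigment to the shaft. In rest the matrix and the pigment-making cells are gone, and a small germ of stem cells lies beside the dermal papilla. Keratins of the Krt family and keratin-associated proteins (Krtap) build the shaft.

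The 3 arrays were selected on the measured log2 ratios of hair shaft keratin genes. The split is therefore a description, with no test and no p-value, and the results are given for genes other than Krt and Krtap. The median of 14 tested hair shaft genes (of a list of 16) was -5.31 on the Eng+/- 90 d array without a named treatment, -4.59 on the Eng+/- 50 d tpa array and -4.57 on the wt 50 d tpa array. The nearest arrays outside were Eng+/- 90 d tpa at -1.67, Eng+/- 50 d with no named treatment at -1.27 and Eng+/- 90 d clp at -0.98. The highest of the 12 was Eng+/- 50 d clp at 1.00. For the hair cuticle keratin Krt82 the 3 arrays read -5.27, -4.77 and -4.60, and the lowest of the others read -3.54. The probe of Dsg4, which encodes a desmoglein that joins shaft cells, was well above background on 0 of the 3 arrays and 8 of the other 9. Its log2 ratios differed by -1.65 in medians. In Cy5 intensity, scaled between arrays channel by channel, it was at least 3.93-fold lower, and every "at least" fold below is on that intensity scale, not a bound on the log2 ratio. For dim probes these folds are approximate, since the detection floor used was not specific to the probe.

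The labels call the material embryonic stem cells, but the genes measured on every array included those of several cell types of skin tissue. All 25 tested genes of the list for epidermal differentiation, all 23 for skeletal muscle and all 23 for fibroblasts were above background on all 12. The probes of the embryonic stem cell markers Pou5f1 and Zfp42 were not well above background on as many as 2 arrays. Of the 10 tested embryonic stem cell genes, 6 were above background on all 12 arrays, Nanog among them. Signal from these 6 genes alone does not show that embryonic stem cells were present. In samples of mixed cell types, fewer cells of a type and less RNA per cell cannot be told apart.

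The hair-poor array without a named treatment, Eng+/- at 90 d, stood apart from the other arrays of its slide. Each of the 3 slides holds 4 arrays of 1 treatment level, so slide and treatment cannot be told apart. Between this array and the 3 others of its slide, 1247, 1629 and 1702 genes were at least 2-fold apart. The counts of 1247 (wt 50 d) and 1702 (wt 90 d) are against the samples titled "pool". The count of 1629 is against Eng+/- 50 d, which is not titled so. Pairs among the 3 others of its slide were 235, 606 and 611 genes apart. Counts of the larger size also occurred without a hair-poor array: pairs of other arrays on the same slide differed in 177 to 1718 genes, the highest on the clp slide. Between the hair-poor Eng+/- 90 d array and the tpa arrays, on another slide, the counts were 27 (wt 50 d), 115 (Eng+/- 50 d), 200 (Eng+/- 90 d) and 402 (wt 90 d). The 2 hair-poor tpa arrays differed from each other in 50 genes, and the 3 pairs among the hair-poor arrays were the lowest of all 66 pairs. The median Cy5 intensity of the Eng+/- 90 d array was 573, against 166.5 to 217 on its slide. It was 403 to 557 on the tpa slide and 205 to 540 on the clp slide. Whether this sample is the one its label names was not tested. Each list median below is therefore also given for the tpa slide alone, where both 50 d arrays are hair-poor and both 90 d arrays are not.

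**Figure D1:**
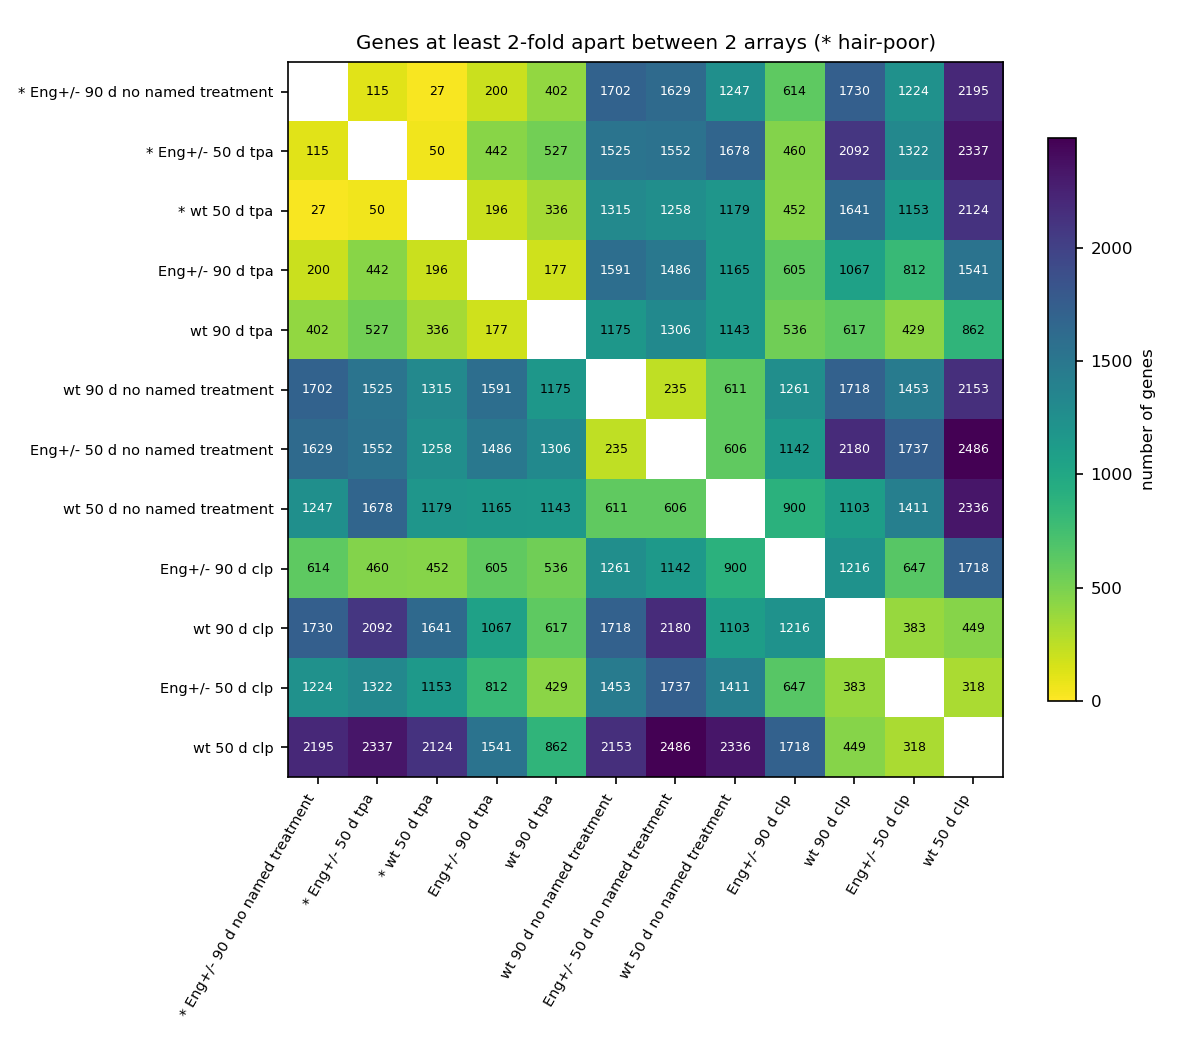
Number of genes at least 2-fold apart between each pair of the 12 arrays, with the 3 hair-poor arrays (starred) placed before the others in both directions. The 3 hair-poor arrays differed from each other in 27 to 115 genes and from the other 9 in 196 to 2337. The other 9 differed among themselves over a like range, 177 to 1718 genes on the same slide and 429 to 2486 between slides.

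Of 17043 genes other than Krt and Krtap, 234 were lower on all 3 hair-poor arrays than on all 9 others with medians at least 1 apart on the log2 scale, and 53 were higher. These are 1.37% and 0.311% of the genes. Without the minimum size, 920 genes (5.4%) were lower and 643 (3.77%) higher with no overlap. Over all genes the median difference was -0.01. Under median centring of each array without loess this median moved to 0.22, and the share of higher genes among those past the minimum went from 18.5% (53 of 287) to 78.3% (696 of 889). The count of higher genes therefore rests on the scaling, while the lower count was 193 under that setting. Since list medians also move with the scaling, each is followed in brackets by its value on the tpa slide and by its range under 3 other scalings (the authors' processed signals, median centring, Cy5 alone). Under these 3 the median over all genes lay between 0.03 and 0.22. The shares of 5.4% lower and 3.77% higher without overlap are those to set beside each count of a list.

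The lower and the higher genes differed in how they behaved on the tpa slide. Of the 234 lower genes, 125 were past 1 within both slides that hold a hair-poor array, and of the 53 higher genes 4 were: Adig, Ppp1r3c, Ifitm6 and Gsta3. Whether called or not, 157 genes (0.921%) were lower and 5 (0.0293%) higher past 1 within both slides. The median within the tpa slide was -1.23 over the lower genes and 0.485 over the higher ones, against -1.41 and 1.34 within the slide with no named treatment. For 41 of the 53 higher genes the nearest of the other arrays was a tpa 90 d array, against 102 of the 234 lower genes. A higher value on the hair-poor arrays was thus often nearly matched on the tpa 90 d arrays. Across all 17043 genes, which are not independent, the differences within both slides correlated at r = 0.33, and all arrays share the reference pool.

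**Figure D2:**
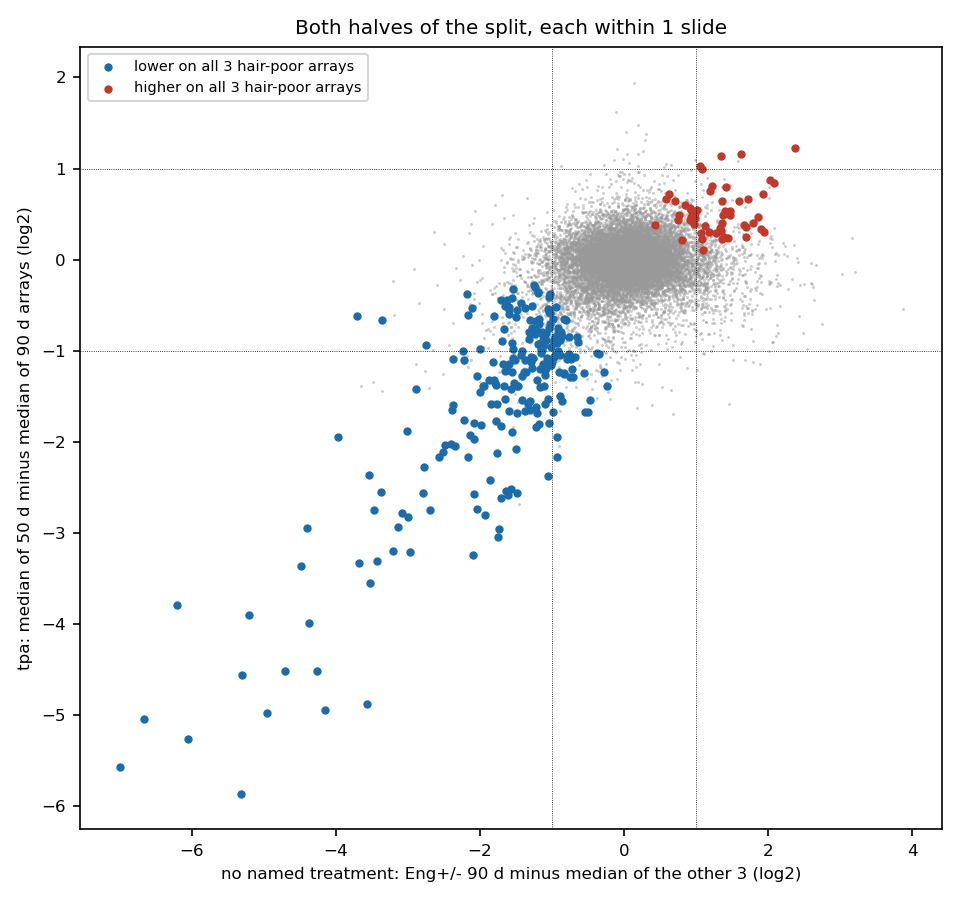
Difference between hair-poor and other arrays for each gene within the slide with no named treatment (horizontal, 1 array against 3) and within the tpa slide (vertical, 2 against 2), on the log2 scale. The 234 lower genes (blue) spread along both axes, while 4 of the 53 higher genes (red) lie past 1 on both.

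The comparison of 90 d with 50 d in tpa samples can be fitted from the labels, though it is not independent of the split. With limma on all 12 arrays (5 residual degrees of freedom), 0 of 25085 features passed an adjusted p of 0.05 in either direction (0%), and 1387 had an unadjusted p under 0.05. The smallest adjusted p was 0.585. The log2 difference of 90 d minus 50 d was 1.59 ± 0.25 (SE) for Lef1 (adjusted p = 0.585), 2.17 ± 0.62 for Hoxc13 (adjusted p = 0.70) and 3.55 ± 0.93 for Tyrp1 (adjusted p = 0.70), each higher at 90 d in 2 of 2 genotypes. When the hair-poor Eng+/- 90 d array was left out, 22 features passed. Leaving out wt 90 d with no named treatment or wt 90 d tpa gave 13 each, and leaving out Eng+/- 50 d tpa or Eng+/- 90 d tpa gave 3 and 1. With the 4 tpa arrays alone and 1 residual degree of freedom, 413 passed. Between Eng+/- and wt at 90 d with no named treatment, 1 array each and no test, 749 genes (4.39%) were at least 2-fold lower in Eng+/- and 953 (5.59%) higher. Here the wt sample is titled "pool" and the Eng+/- sample is not, so genotype and any such difference in preparation cannot be told apart.

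Shaft and root sheath proteins other than keratins were lower as a list. Of 17 tested genes, 9 were lower on all 3 hair-poor arrays, all 9 past 1, and 0 were higher, with a list median of -1.69 (tpa slide -0.89, other scalings -1.31 to -1.13). In the order Eng+/- 90 d, Eng+/- 50 d tpa and wt 50 d tpa, used for all triplets from here on, Tchh read -6.96, -5.22 and -7.11. On the other 9 arrays Tchh, which encodes trichohyalin of the inner root sheath and medulla, ranged from -1.57 to 1.09 (median -0.29). Its probe was saturated on 9 of those 9, so the difference in intensity is at least 21.1-fold. Padi3, an enzyme that converts arginine to citrulline in trichohyalin, read -7.19, -6.06 and -6.39, against -2.46 to 1.19 (median -0.07). S100a3, a calcium-binding protein of the hair cuticle, read -5.49, -4.48 and -4.89, against -2.06 to 1.09 (median 0.01). None of these genes came near overlapping: the gap between the nearest arrays was over 2 on the log2 scale for all 3. Vsig8, at -7.16, -5.69 and -6.58 against -1.51 to 0.99 (median 0.32), differed by -6.90, with its probe saturated on 4 of the other 9 arrays. Members of this list outside the 9 were closer together, such as Hephl1 at -0.53 (overlapping), and all 17 had a negative difference.

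Some of the other genes among the 12 with the lowest measured differences act in metabolism or at membranes. Fbp1, the gluconeogenic fructose bisphosphatase, read -6.12, -5.73 and -5.72, against -1.53 to 1.88 (median -0.16). Crym, a thyroid hormone-binding protein, read -5.47, -4.94 and -5.36, against -2.09 to 2.04 (median 0.57). Gjb2, a gap junction connexin, read -4.05, -4.40 and -4.30, against -1.12 to 1.73 (median 0.56). The other members of these 12 were Ly6g6d (-5.61), Tchhl1 (-5.14), Crnn (-5.00), Calhm4 (-4.70) and Lrrc15 (-4.68), given as differences of medians. The probes of 10 of these 12 genes were saturated on 1 to 9 of the other arrays, and that of Calhm4 was above background on 1 of 3 hair-poor arrays, so the values are as measured and their order is not settled. Chosen after their values were seen, the connexin genes Gjb6 (difference -3.36) and Gja1 (-2.0) were also among the 234, as was Cdh3, the P-cadherin of the matrix (-2.43). Gja1 read 0.23, -0.04 and 0.39, against 0.89 to 3.26.

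Transcription factors of the hair matrix were lower as a list. Of 20 genes, 10 lay below all other arrays (8 past 1), 0 above, and 17 were lower on both tpa 50 d arrays than on both tpa 90 d arrays. That last order held for 27.2% of all genes. The list median was -1.01 (tpa slide -0.86, other scalings -0.98 to -0.68). Msx2, a homeobox factor that keeps up hair differentiation, read -2.06, -2.15 and -1.95, against -0.46 to 1.12 (median 0.44). Hoxc13, a regulator of hair keratin genes, read -2.85, -3.11 and -2.73, against -1.54 to 0.49 (median -0.46). Dlx3, a homeobox factor needed for the shaft and inner root sheath, read -1.59, -1.78 and -1.87, against -1.28 to 0.06 (median -0.64). All 3 groups of values were without overlap, and that of Dlx3 came nearest to it. Lower still in difference was Dlx2 (-3.05), with Dlx4 at -2.44, Ovol1 at -1.18 and Elf5 at -1.17. Foxn1, the nude locus factor, differed by -1.05 but overlapped, and Gata3, a factor of the inner root sheath, differed by -0.39 with opposite signs within the slides (1.39 with no named treatment, -0.68 with tpa).

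**Figure D3:**
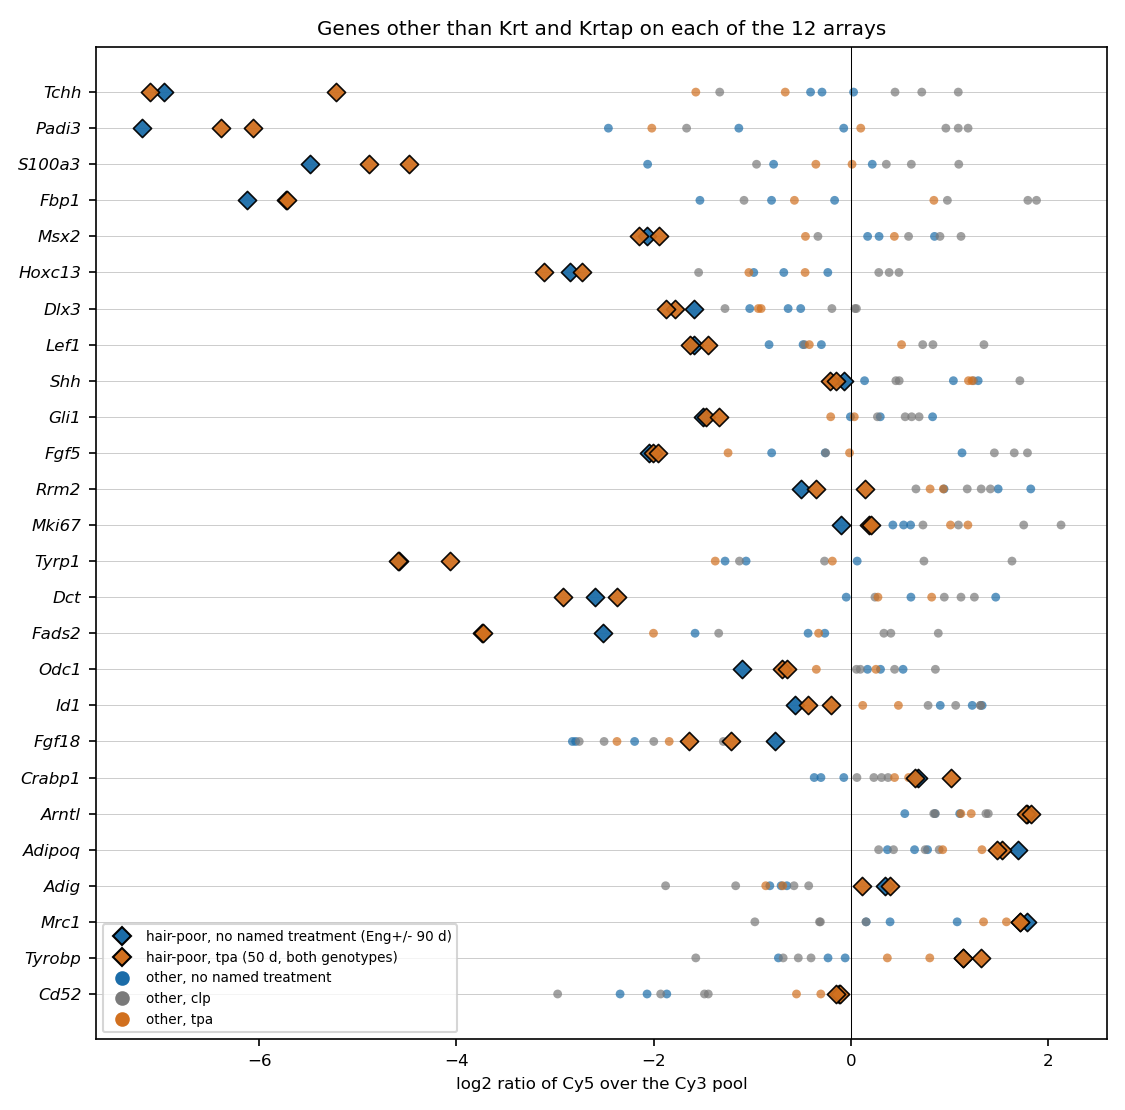
Log2 ratio of Cy5 over the Cy3 pool for 26 genes on each of the 12 arrays, with hair-poor arrays as diamonds and the others as circles, coloured by treatment. Hair shaft and matrix genes lie apart by 2 or more log2 units for the widest, while for genes such as Mrc1 and Cd52 the tpa 90 d arrays come close to the diamonds.

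Melanocyte genes were also lower as a list. Of 18 genes, 12 were lower without overlap (11 past 1) and 0 higher, and the list median was -1.44 (tpa slide -1.31, other scalings -2.45 to -1.67). Within the tpa slide and under all 3 other scalings this median was below that of the shaft and root sheath proteins, and above it with the scaling used here. The list median lay between -1.69 and -1.56 on the hair-poor arrays and between -0.30 and 1.22 on the others. Tyrp1, an enzyme of melanin synthesis, read -4.58, -4.60 and -4.06, against -1.37 to 1.63 (median -0.27). Dct, which acts beside it, read -2.59, -2.92 and -2.37, against -0.05 to 1.47 (median 0.82). Mc1r, the melanocortin receptor, read -2.02, -1.93 and -1.95, against -0.16 to 1.29 (median 0.45). The 3 hair-poor arrays lay close together for each of these genes. Oca2, a melanosome membrane protein, was above background on 0 of 3 hair-poor and 9 of 9 other arrays. Its log2 ratios differed by -2.21, and in intensity it was at least 7.30-fold lower. Pmel (-2.45), Mlana (-1.95), Slc24a5 (-1.97) and Slc45a2 (-1.70) were also in the group. The genes that mark the lineage rather than pigment production were closer together: Mitf, the lineage's transcription factor, differed by -0.32, Sox10 and Ednrb overlapped as well, and Kit, the receptor for stem cell factor, was lower without overlap but short of 1. Tyr had 2 probes that differed by -1.17 and -0.30.

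Genes of the cell cycle were lower by smaller amounts, and the share lower without overlap (58.3%) was below that of melanocyte genes (66.7%). Of 36 genes, 21 lay below all 9 other arrays and 0 above, against 5.4% and 3.77% of all genes, and 32 were lower on both tpa 50 d arrays than on both tpa 90 d arrays. The list median was -0.62 (tpa slide -0.55, other scalings -0.63 to -0.31), and 1 gene was past 1. That gene was Rrm2, a subunit of the ribonucleotide reductase that supplies DNA building blocks, at -0.50, -0.36 and 0.15 against 0.66 to 1.82 (median 1.18). Mki67, the proliferation marker Ki-67, read -0.10, 0.18 and 0.21, against 0.43 to 2.13 (median 1.01). Top2a, the topoisomerase of dividing cells, read 0.46, 0.55 and 0.61, against 0.63 to 1.70 (median 1.21). Cycling genes were thus still measured on the hair-poor arrays, and for Top2a the nearest arrays were almost level. Plk1 (-0.96), Birc5 (-0.85) and Cdk1 (-0.83) act in mitosis and differed by similar amounts, while E2f1, Tyms and Cdc6 overlapped. Outside the list, and chosen after their values were seen, Mycn (-2.44), the DNA methylation factor Uhrf1 (-1.64), E2f3 (-1.11), E2f2 (-1.07) and the thymidine kinase Tk1 (-1.04) were among the 234. A second probe gave -0.52 for Uhrf1 and -0.55 for E2f3.

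**Figure D4:**
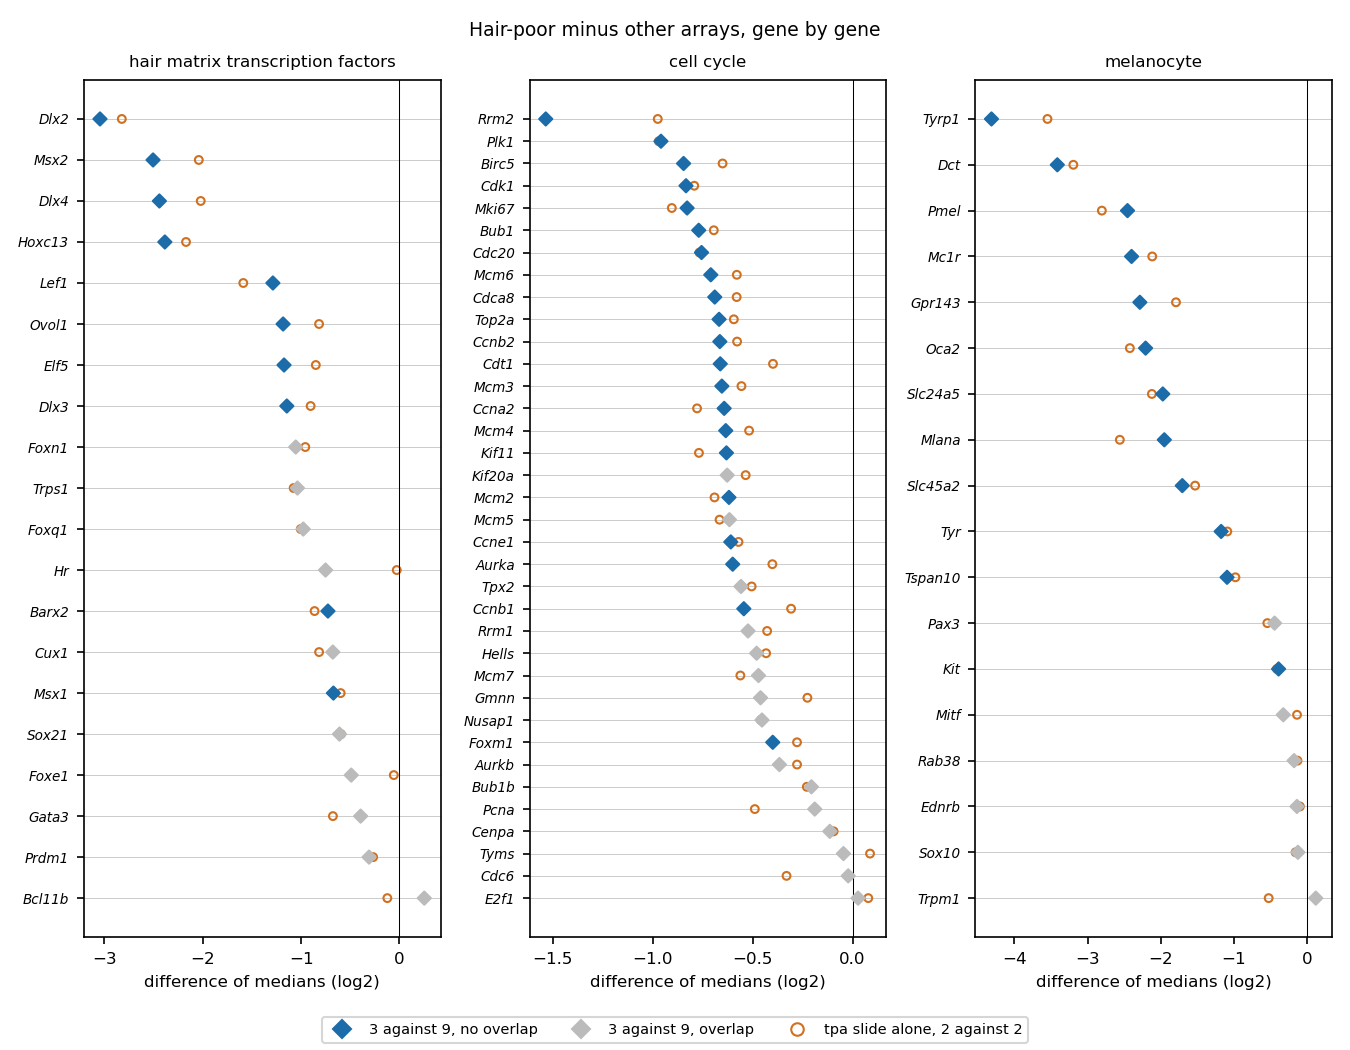
Hair-poor minus other arrays (log2 difference of medians) for each tested gene of 3 lists, over all 12 arrays (diamonds, blue where the 3 arrays do not overlap the 9) and within the tpa slide alone (open circles). Of the genes shown, 10 of 20 matrix transcription factors, 21 of 36 cell cycle genes and 12 of 18 melanocyte genes lay lower without overlap.

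Among signals, Hedgehog genes were lower as a list. Of 12 genes, 6 were lower without overlap (3 past 1) and 1 higher, with a list median of -0.51 (tpa slide -0.41, other scalings -0.77 to -0.58). Shh, the ligand made by the matrix, read -0.06, -0.21 and -0.15, against 0.14 to 1.71 (median 1.19). Its probe was above background on 0 of 3 hair-poor and 9 of 9 other arrays. Its log2 ratios differed by -1.34, and in intensity it was at least 2.87-fold lower. Gli1, a target of the pathway, read -1.50, -1.47 and -1.33, against -0.20 to 0.83 (median 0.30). The receptor Ptch1 (-0.58) and the transducer Smo (-0.52) were also without overlap, by smaller amounts. Hhip, an inhibitor, differed by -1.10 and -0.12 in its 2 probes, and Cdon, a co-receptor and the member above, by 0.62 and -0.09.

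Wnt genes divided into some that were lower and many that overlapped. Of 30 genes, 11 were lower without overlap (4 past 1) and 0 higher, and the list median was -0.20 (tpa slide -0.27, other scalings -0.47 to -0.15). Lef1, the transcription factor through which the matrix answers Wnt, read -1.59, -1.64 and -1.45, against -0.83 to 1.35 (median -0.30). The secreted inhibitors Wif1 (-1.49) and Sfrp1 (-1.18) were lower too, as was the ligand Wnt10b (-0.70). Both ligands and inhibitors were thus in the lower group, while the general target Axin2 (-0.31) and the inhibitor Dkk1 (above background on 0 of 3 and 3 of 9) overlapped. Tcf7 had 2 probes at -1.28 and -0.28, and Nkd1 2 at -0.86 and 0.12.

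FGF, EGF and IGF genes had a list median of -0.13 (tpa slide -0.08, other scalings -0.04 to 0.11), with 6 of 30 lower without overlap (4 past 1) and 0 higher. Fgf5, the signal that ends hair growth, read -2.05, -2.0 and -1.96, against -1.24 to 1.79 (median -0.01). Areg, an EGF receptor ligand, differed by -1.37, and the FGF pathway genes Dusp6 and Etv4 by -1.25 and -1.16. A second probe of Etv4 gave -0.59. Fgf18, a signal of the resting follicle, went the other way at -0.77, -1.64 and -1.21, but its range on the other arrays of -2.82 to -1.29 overlapped. Igf1, which dermal papilla cells secrete, overlapped, and its 4 probes gave differences from 0.00 to 1.34.

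The BMP and TGF-beta list had 3 of 31 genes lower and 1 higher without overlap, and a median of -0.24 (tpa slide -0.20, other scalings -0.25 to 0.06). Within the slide with no named treatment its median was 0.01. Id1, a target of BMP signalling, read -0.57, -0.43 and -0.20, against 0.12 to 1.33 (median 1.06), and Id4 and Smad6 differed by -0.86 and -0.95. The higher gene was Acvrl1, the endothelial receptor that works with endoglin, at -0.72, -0.65 and -0.79 against -1.70 to -0.87. The ligands Bmp2 and Bmp4 and the inhibitor Nog overlapped, Nog with a difference of -1.65. Eng itself read -0.86, -0.49 and -1.13, inside the range of the others from -1.43 to 1.92. In the Notch list 4 of 16 genes were lower, among them Heyl (-1.28), the ligand Jag1 (-1.22) and Hes1 (-1.02), and 1 higher, Rbpj, whose 2 probes gave 0.38 and -0.14. The Notch list median was -0.11 (tpa slide -0.05, other scalings -0.09 to 0.21).

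Markers of the follicle's lasting parts had list medians nearer 0 than the shaft, matrix, melanocyte, cell cycle and Hedgehog lists. With the scaling used here, the stem cell list median was still farther from 0 than those of the Wnt, BMP, FGF and Notch lists. Of 27 genes of stem cells and hair germ, 4 (14.8%) were lower without overlap and 0 higher, with a list median of -0.33 (tpa slide -0.23, other scalings -0.40 to -0.02). Lgr5, a marker of cycling follicle stem cells, read -0.89, -1.0 and -0.87, against -0.35 to 0.74, and Sox9, a stem cell transcription factor, read -0.06, -0.69 and -0.11, against 0.11 to 1.26. The others of the 4 were Gli1 and Tbx1. Cd34 (0.36) and Nfatc1 (0.58), markers of the bulge, where stem cells rest, overlapped. The dermal papilla list had a median of -0.00 over 26 genes (tpa slide -0.14, other scalings 0.05 to 0.20), with 4 lower and 1 higher. Corin, a papilla protease, read -0.36, -0.01 and -0.22, against 0.01 to 1.69, and Cntfr differed by -1.40. Crabp1, a retinoic acid-binding protein of papilla cells, was the higher one, at 0.68, 1.02 and 0.65 against -0.37 to 0.59. Sox2, Alx4, Fgf7 and Rspo2 overlapped.

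**Figure D5:**
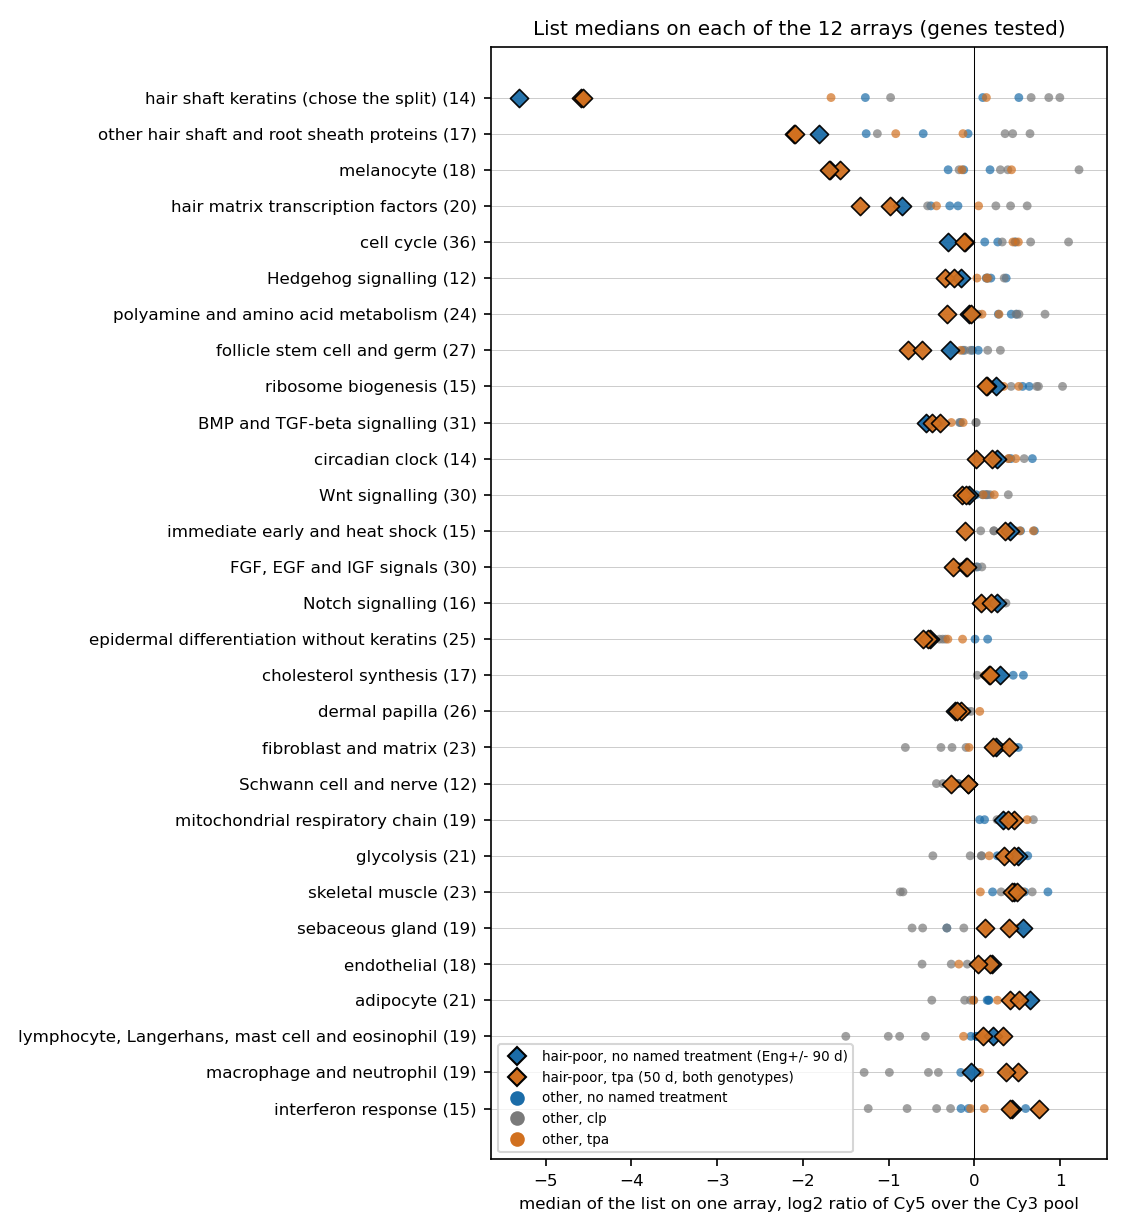
Median log2 ratio of each gene list on each of the 12 arrays, with hair-poor arrays as diamonds and others as circles coloured by treatment; the number of tested genes is in brackets. The melanocyte list lies from -1.69 to -1.56 on the hair-poor arrays and from -0.30 to 1.22 on the others, whereas the immune and interferon lists were lowest on the 4 clp arrays.

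Immune genes had higher medians on the hair-poor arrays than on the other 9, and the clp arrays held the lowest values. The macrophage and neutrophil list had a median difference of 0.61 (tpa slide 0.31, other scalings 0.72 to 1.38), with 3 of 19 genes (15.8%) higher without overlap, all past 1, and 0 lower. Its list median was -0.04, 0.52 and 0.37 on the hair-poor arrays, -1.28 to -0.42 on the clp arrays, and -0.16 to 0.38 on the remaining 5. The ranges overlapped, since wt 90 d with no named treatment read 0.38. Mrc1, the macrophage mannose receptor, read 1.79, 1.72 and 1.71, against -0.97 to 1.58 (median 0.16). The highest other values of Mrc1 were on the tpa 90 d arrays, at 1.58 and 1.35. Tyrobp, a signalling adaptor of myeloid cells, read 1.13, 1.32 and 1.14, against -1.57 to 0.80 (median -0.40). Cd14, a receptor for bacterial lipopolysaccharide, differed by 1.01, and Lyz2, a lysozyme of macrophages, by 1.64 with overlap. Among the 12 highest of all genes, Ly86 (1.90), Ccl9 (1.79), Cd52 (1.74), Cfp (1.70), Retnla and Ccl24 (1.52) also belong to immune cells. On the tpa slide the differences of these 6 lay between 0.30 and 0.80. Retnla was saturated on all 3 hair-poor arrays and was at least 1.57-fold higher in intensity.

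The list of lymphocyte, Langerhans, mast cell and eosinophil genes had a median of 0.46 (tpa slide 0.14, other scalings 0.48 to 1.28), with 3 of 19 (15.8%) higher: H2-Aa (0.78), Cd207 (0.46) and Cd8a (0.37). The interferon list had a median of 0.61 (tpa slide 0.69, other scalings 0.94 to 1.28), with 2 of 15 (13.3%) higher and 12 of 15 higher on both tpa 50 d arrays than on both tpa 90 d arrays. That last order held for 23.6% of all genes. Within the slide with no named treatment the difference was 0.15, and the list median of its wt 90 d array (0.60) lay above that of the hair-poor array (0.44). Irgm1, an interferon-induced GTPase, read 0.73, 0.95 and 0.61, against -0.82 to 0.58. Its values did not overlap, though the nearest arrays were almost level.

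Adipocyte genes had a median of 0.37 (tpa slide 0.13, other scalings 0.43 to 0.76), with 3 of 21 (14.3%) higher without overlap and 0 lower. Adig, adipogenin, read 0.34, 0.40 and 0.11, against -1.88 to -0.43 (median -0.71), and differed by 1.05 and 1.03 within the slides. Adipoq, which encodes the hormone adiponectin, read 1.70, 1.54 and 1.48, against 0.28 to 1.33 (median 0.75). Retn, the hormone resistin, read 0.68, 0.76 and 0.86, against -1.37 to 0.27 (median -0.63). Lep, Plin1 and Car3 overlapped. Mrap, an accessory protein of melanocortin receptors, was among the 12 highest at 1.54, and Ppp1r3c and Gys2, which act in glycogen storage, were among the 53 at 1.18 and 1.06 (the last 2 chosen after their values were seen). Mup3, a major urinary protein, was saturated on 3 of 3 hair-poor arrays, was at least 2.16-fold higher in intensity and differed in log2 ratio by 0.33 on the tpa slide.

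Endothelial genes had a median of 0.29 (tpa slide 0.17, other scalings 0.34 to 0.73), with 3 of 18 (16.7%), Cldn5 (0.74), Emcn (0.59) and Tek (0.56), higher without overlap and 0 lower. The muscle, fibroblast, Schwann cell, epidermal and sebaceous lists had at most 1 gene higher without overlap, and their medians moved with the scaling. Skeletal muscle genes had 0 of 23 in either direction and a median of 0.22 (tpa slide 0.09, other scalings 0.13 to 0.81), and their list median of 0.44 to 0.50 on the hair-poor arrays lay inside the range of the others, -0.86 to 0.86. In the fibroblast list, with a median of 0.04 (tpa slide 0.01, other scalings 0.13 to 0.72), 1 of 23 was higher, Dpt (0.79), and Col1a1 and Col3a1 were saturated on all 12 arrays. The fibroblast median within the slide with no named treatment was -0.29. Schwann cell genes had 1 of 12 higher, Cnp (0.18), and a median of 0.11 (tpa slide 0.02, other scalings 0.12 to 0.51). Epidermal differentiation genes had 1 of 25 lower and a median of -0.03 (tpa slide -0.07, other scalings -0.05 to 0.24). In the sebaceous gland list Fads2, a fatty acid desaturase, was the exception at -2.52, -3.74 and -3.73 against -2.0 to 0.89, while the other 18 of 19 genes overlapped. The list median was 0.23 (tpa slide -0.12, other scalings 0.19 to 0.70). Within the tpa slide 7 of the 19 genes were lower on both 50 d arrays than on both 90 d arrays and 3 were higher, against 27.2% and 23.6% of all genes.

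In metabolism, polyamine and amino acid genes had a median of -0.38 (tpa slide -0.43, other scalings -0.56 to -0.16), with 5 of 24 (20.8%) lower without overlap and 0 higher. Slc7a8, an amino acid transporter, read -1.93, -1.12 and -1.19, against -0.81 to 2.37 (median 0.82). Odc1, the rate-limiting enzyme of polyamine synthesis, read -1.10, -0.70 and -0.65, against -0.35 to 0.86, and its 3 probes differed by -0.95 to -0.20. Txnrd1, a thioredoxin reductase, differed by -0.99, and Cth, which makes cysteine, by -0.76. Ctps, a CTP synthetase, differed by -2.71 and Upp1, a uridine phosphorylase, by -2.10, both chosen after their values were seen. Ribosome biogenesis genes had 4 of 15 (26.7%) lower, among them Fbl (-0.92) and Nop56 (-0.77), and a median of -0.32 (tpa slide -0.29, other scalings -0.44 to -0.14). Glycolysis (21 genes) and the mitochondrial respiratory chain (19 genes) had 0 genes in either direction. Their medians were 0.17 (tpa slide -0.01, other scalings 0.05 to 0.50) and 0.11 (tpa slide 0.04, other scalings 0.05 to 0.39). Cholesterol synthesis had 1 of 17 lower and a median of -0.01 (tpa slide -0.01, other scalings 0.10 to 0.36).

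In the clock list both genes without overlap were higher. Arntl, which encodes the activator BMAL1, read 1.79, 1.78 and 1.82, against 0.55 to 1.39 (median 1.10), and its partner Clock read 1.31, 1.42 and 1.40, against 0.41 to 1.19 (median 0.84). These were 2 of 14 genes (14.3%), and 0 were lower without overlap. The repressor Per1 (-0.72) and the output factor Dbp (-0.52, of opposite sign under median centring) overlapped, and the list median was -0.20 (tpa slide -0.10, other scalings -0.23 to -0.12). The sources used here do not say at what time of day samples were taken. Immediate early and heat shock genes had 0 of 15 in either direction and a median of -0.18 (tpa slide -0.19, other scalings -0.24 to 0.11), with Egr1 at -0.89 and Fos at 0.51.

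The 3 hair-poor arrays differed little among themselves. On the Eng+/- 90 d array 3 genes were at least 2-fold lower and 9 at least 2-fold higher than on each tpa array. The shaft gene Tchhl1 was lower there, at -6.14 against -4.75 and -5.08. Interferon genes varied among them: Isg15 read -1.70, 0.40 and -1.36, and Oasl1 read -0.61, 0.77 and 0.16. Mdk, the growth factor midkine, read -1.17, -2.86 and -2.17, and Fads2 was also higher on the Eng+/- 90 d array.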

How the data were processed

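The 12 deposited scanner files hold median intensity values of both channels, and in the deposited table the values are log10 ratios of Cy5 to Cy3, equal to those in the scanner files (largest difference 0), per the file headers background-subtracted and dye-normalized by the authors. The file headers give Feature Extraction 10.7.3.1 and design 026655 (probe annotation mm9), the submitters' processing notes 10.0 and the series text 10.1. The series text also describes wt RNA in Cy3, dye swaps and another scanner. The labels of the single arrays, used here, give the sample in Cy5 and a pool in Cy3 on all 12.

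Log2 ratios were made from deposited intensities in R 4.3.3 with limma 3.58.1 and the data.table package, version 1.17.8 (normexp, offset 50, loess within arrays). Outlier spots were masked, and 975 of 39429 probes with no spot left on some array were dropped. A probe was tested if Cy5 was well above background on at least 2 arrays (30498 probes). The brightest probe stood for a gene, named by accession through RefSeq (22342 probes named, 17167 genes with a symbol). Krt and Krtap genes were left out, as were 23 predicted genes within 100 kb of Krtap genes, a choice made after the data were seen. The number of arrays limits precision.

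The members and lists were chosen with earlier results of these data known. A gene counts as lower or higher without overlap if all 3 hair-poor arrays lie on 1 side of the other 9, and as past 1 if the medians are also at least 1 apart. Named were the key genes of each list, up to 4 further genes of a list without overlap, the 12 lowest and 12 highest of all, and up to 6 genes apart among the hair-poor arrays (above background on all 12 arrays, a limit added later). "At least" folds compare Cy5 intensities after loess and Aquantile scaling, open to dye bias: the bright arrays' mean, saturated spots at their measured value, against the dim arrays' mean or, if higher, the detection floor. That floor is the lowest level of any probe well above background on the array. It may lie below the limit of the probe at hand, so the folds of dim probes can be too large. The tpa comparison used a two-sided limma fit of genotype plus 6 conditions (treatment and day), eBayes with trend and Benjamini-Hochberg adjustment, in which lone arrays are assumed to vary alike. On simulated data for 90 d against 50 d with tpa (25085 features), it recovered 35% of 100 genes changed by 1 and 77% of 100 changed by 2 (log2), with 3 false calls of 115. The simulated noise was normal and independent between genes, and the changed genes were picked at random. These shares therefore need not hold for hair genes, for which the hair-poor Eng+/- 90 d array adds to the residual spread. Alternatives covered background correction, scaling, the filter, probe choice, slides, the minimum size and single arrays left out. The figures were drawn with matplotlib 3.10.9.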

Additional observations from a re-analysis of the deposited data

How the results depend on the processing

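Counts of lower and higher genes were 234 and 53. Moved by more than 1.5 times were the lower count in the slide with no named treatment alone (644), at a minimum of 2 (65) and with no minimum (920), and the higher count with the authors' processed signals (136), median centring (696), Cy5 alone (144), the slide with no named treatment alone (728), the tpa slide alone (18), a minimum of 2 (0) and no minimum (643). Leaving out arrays in turn gave 211 to 316 lower and 41 to 96 higher genes, with 96 without Eng+/- 90 d tpa. The lower count ranged from 193 to 328 under the scaling alternatives. The count between Eng+/- and wt at 90 d with no named treatment was 1702, and was 3552 with processed signals and 7963 with median centring. Leaving out any other array could not change this count, which uses only the compared arrays, each normalized on its own. The tpa comparison gave 0 features, 0 to 22 with arrays left out in turn, and 413 with the 4 tpa arrays alone. Its difference for Mup3 changed sign with Cy5 alone (0.0131). The cause of these shifts was not tested. Without both arrays whose reference channel stood apart (wt 50 d with no named treatment and wt 90 d clp) the counts were 208 and 54, and with predicted genes beside Krtap genes 252 and 53, both chosen after seeing the data. Median centring also turned the signs of the list medians for dermal papilla (0.20), epidermal differentiation (0.24), cholesterol synthesis (0.36), Notch (0.21), FGF, EGF and IGF (0.11), BMP and TGF-beta (0.06), immediate early (0.11) and embryonic stem cell genes (0.05), and of Bmp2, Col1a1, Dbp and Trp63. Samples could not be paired by replicate, because each group has 1 array and the labels carry no replicate numbers. The tpa fit did hold genotype, matched within each treatment and day, as a term. Saturated or dim probes limit precision further: 22 of the 234 lower genes were saturated on 1 or more of the other arrays and 8 were not above background on any hair-poor array.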
